A study of Drosophila melanogaster with 3 samples.

Results

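The 9 strongest crp promoter peaks at genes outside the larger gene families lay at CG9175, puml, RabGGTb, Slh, CG8520, CG5276, CG11050, CG10383 and Rfx. They were 9 of 5460 peaks. The genes were chosen by the deposited signal of their peaks: each had the start site nearest to 1 of the 15 peaks of highest signal in the list the authors filtered by irreproducible discovery rate (IDR), a score of whether a peak ranks alike in different replicates. The other 6 of these 15 peaks, at Tpr2, HtrA2, mTTF, milt, Tsp86D and jar, serve here only for comparison. Since signal chose the 9 peaks, it is given as a description with no test.

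The chromatin came from whole Drosophila melanogaster embryos of both sexes, 0 to 24 h old, of 1 transgenic line that stably expresses crp with GFP fused to its C terminus. It was sonicated to 200 to 800 bp and precipitated with an antibody against GFP. The 3 samples were biological replicates of this single group, so there was no second genotype or condition to compare, and all stages and tissues of the embryo were mixed. The relaxed lists of replicates 1, 2 and 3 held 30000, 28713 and 30000 peaks, and sequencing depth is unknown. In all lists the signal is the authors' own value per peak, on a scale that moves with depth. Relative signal below is a peak's signal divided by the median signal of the 5460 strongest peaks of the same list. Coordinates are on dm6, counted from 1.

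crp (cropped) is the fly member of the AP-4 family of basic helix-loop-helix factors. These factors bind as dimers to an E-box, and AP-4 prefers the palindrome CAGCTG, called the AP-4 site below. The mammalian AP-4 site is known to be flanked by A or T. RabGGTb encodes the beta subunit of the transferase that attaches lipid anchors to Rab GTPases. Slh is the fly Sly1, a Sec1/Munc18 protein that acts with the syntaxin Syx5 in fusion between endoplasmic reticulum and Golgi. The gene puml (pummelig) carries the synonym CGI-58 in RefSeq; in mammals CGI-58 co-activates the lipase whose fly relative is bmm. Rfx encodes a winged-helix transcription factor known for the ciliated sensory neurons. CG9175, CG8520, CG5276, CG11050 and CG10383 encode uncharacterized proteins in RefSeq. CG9175 also carries the synonym Sec12 there; in Saccharomyces cerevisiae, Sec12 activates the GTPase Sar1, which starts the COPII coat. Whether the fly proteins match their namesakes in yeast and mammals was not tested.

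The promoter DNA carried repeated AP-4 sites, and the stretches that hold them are printed 5′ to 3′ on the strand of the named gene, with each CAGCTG in capitals, from the RefSeq copy of the dm6 assembly. The first set ends at the base before the start site of the gene (for Slh, it spans all bases between the start sites of Slh and oaf). It shows the 5 sites of CG9175, the single upstream sites of RabGGTb and CG11050, the pair of Rfx, and the pair of Slh with 1 site towards each gene.
CG9175, chr2L:6098967-6099116, minus strand: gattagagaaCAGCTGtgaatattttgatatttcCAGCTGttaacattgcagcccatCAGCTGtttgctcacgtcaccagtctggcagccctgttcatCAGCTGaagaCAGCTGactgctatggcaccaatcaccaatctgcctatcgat
RabGGTb, chr2L:2879002-2879111, plus strand: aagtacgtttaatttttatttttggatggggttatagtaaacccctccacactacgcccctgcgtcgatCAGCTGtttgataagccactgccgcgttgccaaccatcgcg
Slh, chr2L:2492672-2492954, minus strand: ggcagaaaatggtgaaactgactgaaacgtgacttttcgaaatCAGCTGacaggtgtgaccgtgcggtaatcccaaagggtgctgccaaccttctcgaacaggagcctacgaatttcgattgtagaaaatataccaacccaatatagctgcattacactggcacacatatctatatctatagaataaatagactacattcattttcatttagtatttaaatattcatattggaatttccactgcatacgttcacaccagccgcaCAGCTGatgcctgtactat
CG11050, chr2L:6610861-6611010, plus strand: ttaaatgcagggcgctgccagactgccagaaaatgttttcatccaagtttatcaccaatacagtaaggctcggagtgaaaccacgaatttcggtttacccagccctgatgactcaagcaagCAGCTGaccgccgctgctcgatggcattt
Rfx, chr3R:10378069-10378218, minus strand: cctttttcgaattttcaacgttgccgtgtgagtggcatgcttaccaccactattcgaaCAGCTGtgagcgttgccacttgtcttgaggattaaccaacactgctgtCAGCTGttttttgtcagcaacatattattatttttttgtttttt

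The second set shows sites of RabGGTb, CG5276, CG11050 and CG10383 that lie within a 5′ UTR, in stretches of 24 bases. No sequence is printed for puml or CG8520, whose sites are described by position only. At CG5276 this stretch holds a close pair between the 2 annotated start sites, and at CG10383 the pair shown is all there is within 150 bp of the summit.
RabGGTb, chr2L:2879112-2879135, plus strand: cagatgaatCAGCTGtgctcgatt
CG5276, chr3R:11431849-11431872, plus strand: cacCAGCTGttgcgcCAGCTGatc
CG11050, chr2L:6611030-6611053, plus strand: cgacgccaaCAGCTGctcgcggtc
CG10383, chr2L:18695471-18695494, minus strand: gttttccgtCAGCTGaatggtctc
CG10383, chr2L:18695442-18695465, minus strand: gaatggcaaCAGCTGacaggcgcg

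All 9 promoters had at least 2 AP-4 sites lying whole within 150 bp of the summit. CG9175 had 5 and each of the other 8 had 2. At least 2 sites were present in 8.02% of all IDR summits, in 17.9% of the 1000 strongest IDR summits, and in 1.89% of 19276 windows of the same length placed 49 bp upstream of every coding start site, the median place of promoter summits. Of the other 6 peaks among the 15 strongest, 4 had at least 2 sites. The most frequent number was 1 among the 1000 strongest peaks (70.1%) and 0 among all IDR peaks (57.1%). The window of 150 bp was chosen with the distance of the nearest site at Slh already known. Within 100 bp, 8 of the 9 had at least 2 sites, and within 50 bp, 5 had.

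**Figure D1:**
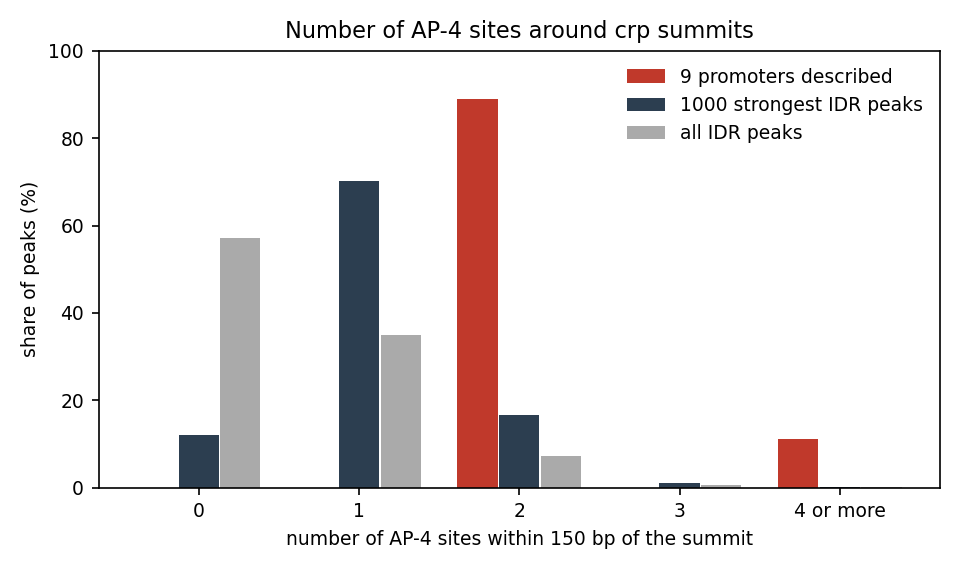
Share of peaks (%, bars from 0) by the number of CAGCTG sites lying whole within 150 bp of the summit, for the 9 promoters described, the 1000 strongest IDR peaks and all 5460 IDR peaks. The 9 promoters have 2 sites (8 promoters) or 5 (CG9175), while 70.1% of the 1000 strongest peaks have 1 and 57.1% of all IDR peaks have 0.

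Within 50 bp of the summit, 7 of the 9 had an AP-4 site. The share was 28.6% of all IDR summits, 30.0% of IDR summits at promoters, 63.0% of the 1000 strongest, and 7.66% of equal windows at all coding start sites. Of the other 6 among the 15 strongest, 5 had a site. The 2 promoters with none were Slh, with its nearest site centred 110.5 bp from the summit, and CG10383, at 50.5 bp. The other nearest sites were centred between 1.5 bp (CG8520) and 41.5 bp (CG5276) from the summit.

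In 4 of the 9, CG9175, puml, CG8520 and CG5276, 2 AP-4 sites stood with their first bases at most 15 bp apart, a limit chosen after the spacings were seen. Such close pairs were present in 1.23% of IDR summits and 3.10% of the 1000 strongest, and at 1 of the other 6. The spacings were 10 bp at CG9175, 13 bp at puml, and 12 bp at both CG8520 and CG5276. The remaining pairs were wider, at 29 bp for CG10383, 48 bp for Rfx, 50 bp for RabGGTb, 57 bp for CG11050 and 221 bp for Slh.

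The bases next to the sites were mostly A or T, the flank known for mammalian AP-4. Over the 21 sites within 150 bp of the 9 summits, 35 of 42 flanking bases (83.3%, 95% Wilson interval 69.4 to 91.7) were A or T. The interval covers counting error only and takes the bases as independent, though they cluster in 9 promoters. The share was 73.8%, inside this interval, at all 2778 sites within 150 bp of IDR summits. It was 41.6% at all 62338 CAGCTG of the 7 chromosome arms. Both flanks were A or T at 14 of the 21 sites (66.7%), against 57.0% at IDR summits and 19.0% over the arms. No site of the 9 had C or G on both sides, which 9.36% of the sites at IDR summits had. The 7 C or G flanks stood at puml and CG11050 (1 for each of their 2 sites), CG5276 (1 for each of its 2 sites) and 1 of the 5 sites of CG9175. At the second base outward, the A or T share was 64.3% in the 9 promoters, 66.5% at IDR summits and 56.8% over the arms.

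Other motifs were fewer. An E-box other than CAGCTG (any of the 9 further CANNTG words, where a word and its reverse complement count as 1) lay within 50 bp of 4 of the 9 summits, against 37.5% of all IDR summits. CAGATG was found at RabGGTb and CG10383, and at 5.29% of IDR summits. CACCTG was found at CG5276 and CG10383 (4.34% of IDR summits) and CAAGTG at Rfx (6.19%). In the printed sequences the CAGATG of RabGGTb opens its 5′ UTR, just before the downstream AP-4 site, and CAAGTG stands on the other strand between the 2 sites of Rfx. None of the 9 had the other E-box words, of which CAAATG was present at 8.44% of IDR summits, CAACTG at 6.15%, CACATG at 4.98%, CATATG at 4.51%, CAATTG at 3.81% and CACGTG at 1.56%. Of 4 core promoter words, searched on both strands, 1 of the 9 summits had one within 50 bp, against 34.7% of IDR summits. This was TATCGA, the core of the DNA replication-related element, at CG5276, and 15.8% of IDR summits had it. The printed sequence of CG9175 also holds TATCGA beside the start site, just outside the window of 50 bp. TATAAA, the TATA box word, was present at 14.6% of IDR summits, GGTATTT at 4.65% and TCACACT at 3.99%.

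The summits lay close to a start site, upstream of the nearest one in 8 of the 9, where the share of all IDR promoter summits was 79.2%. With the summits of replicates 1, 2 and 3 in place of those of the IDR list, the count was 6, 8 and 9. The median distance, counted alike in either direction, was 63 bp, against 67 bp for all promoter summits. The summit stood outside every transcript in 6 and in a 5′ UTR in the other 3, CG8520, CG5276 and CG10383. Each of those 3 genes has 2 annotated start sites, and the summit lay between them.

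**Figure D2:**
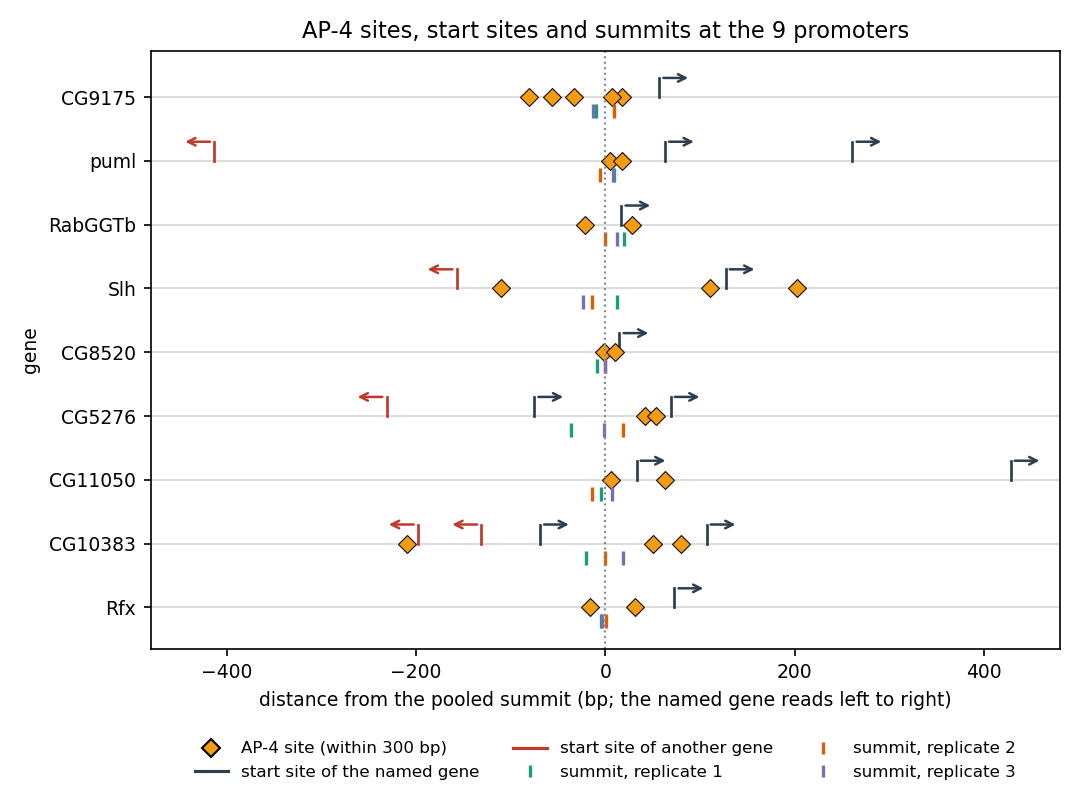
Place of CAGCTG sites (diamonds, shown to 300 bp from the summit), of annotated start sites (arrows point along the gene; dark, the named gene; red, another gene) and of the summits of replicates 1 to 3 (ticks), by distance in bp from the pooled summit, with the named gene read left to right. Slh has no site within 50 bp and 1 site towards each of the start sites of Slh and oaf, and the replicate summits of every gene lie within 55 bp of each other.

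CG9175 (FBgn0031779, chr2L:6096698-6098966, minus strand) held the peak of highest signal in the series. Its relative signal was 47.2, 58.7 and 49.96 in replicates 1, 2 and 3, a mean of 52.0 ± 5.96 (SD, n = 3). It ranked 1 in the IDR list and in all 3 replicates, and its lowest replicate was above the highest replicate of every other of the 9. The summit, at 6099023, lay 57 bp upstream of the only annotated start site. The 5 sites began 42, 52, 93, 116 and 140 bp upstream of it, and 3 of them lay within 50 bp of the summit. The replicate summits fell within 22 bp. No start site on the other strand lay within 500 bp. The nearest was that of stai, the stathmin gene, 1354 bp from the summit, which had a weak IDR peak of its own (rank 2935, relative signal 0.920 in the IDR list).

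RabGGTb (FBgn0028970, chr2L:2879112-2880708, plus strand) had the least even signal of the 9. Its relative signal was 25.1, 26.3 and 39.1, a mean of 30.2 ± 7.75 (SD, n = 3), so that replicate 3 stood well above the other pair. The rank was 16 in replicates 1 and 2, and 3 in replicate 3. The summit, at 2879095, was 17 bp upstream of the start site, between 2 sites that began 41 bp upstream and 9 bp downstream of it. The upstream neighbour Sbat (sabbat) reads in the same direction and ends 110 bp before RabGGTb. Sbat shares a promoter with Prx6a, a peroxiredoxin gene on the other strand, and that promoter had an IDR peak of its own 801 bp from the RabGGTb summit. This second peak ranked 123, with a relative signal of 11.1, 16.4 and 12.9 in replicates 1, 2 and 3, below RabGGTb in each. The RabGGTb peak was the widest of the 9 (1971 bp) and reached to this second promoter.

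Slh (FBgn0264978, chr2L:2488197-2492671, minus strand) shares its promoter with oaf (out at first), which reads away on the plus strand from a start site 284 bp off. Relative signal was 27.5, 37.0 and 27.5, a mean of 30.7 ± 5.50 (SD, n = 3), highest in replicate 2, where it ranked 4. In replicates 1 and 3 it ranked 10 and 21. The summit, at 2492798, was 127 bp upstream of Slh and 157 bp from the oaf start, the farthest from a start site among the 9. One AP-4 site began 19 bp upstream of Slh and the other 49 bp upstream of oaf, each centred 110.5 bp from the summit, and both had A or T on either side. The replicate summits fell within 35 bp, in the stretch between these sites. One more site lay 202.5 bp from the summit in the 5′ UTR of Slh.

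The peak at puml (FBgn0033226, chr2R:7812504-7815486, plus strand) was the second highest of the 9. Relative signal was 31.9, 32.0 and 39.1, a mean of 34.3 ± 4.10 (SD, n = 3), with ranks of 4, 6 and 4. The summit, at 7812441, lay 63 bp upstream of the first of 3 start sites, with a pair of AP-4 sites beginning 61 and 48 bp upstream. The gene on the other strand is TTLL12 (tubulin tyrosine ligase-like 12), whose start site is 476 bp from that of puml and 413 bp from the summit. Both AP-4 sites are at the puml end, 420 and 433 bp from the TTLL12 start. In replicate 1, a second summit stood 371 bp away beside the TTLL12 start, at a relative signal of 1.13. The IDR list had no such summit, and neither had the stronger peaks of the other replicates. The weaker peaks of those replicates were not searched for it. Replicate 1 also had second summits at CG8520, CG11050 and Rfx, 211, 237 and 212 bp away, at a relative signal of 3.42, 2.61 and 0.820. Replicate 3 had one at CG8520 as well, at 2.00. The nearest start site to each of these was that of the named gene itself.

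Rfx (FBgn0020379, chr3R:10361760-10378068, minus strand) had the lowest mean of the 9 and the narrowest peak, 1000 bp. Relative signal was 26.4, 25.3 and 31.4, a mean of 27.7 ± 3.28 (SD, n = 3), with ranks of 14, 20 and 13. Its summit, at 10378141, moved by only 6 bp between replicates and lay 73 bp upstream of the first of 2 annotated start sites. The 2 AP-4 sites began 44 and 92 bp upstream, on either side of the summit, each with A or T on both flanks. No coding start site of another gene lay within 500 bp, and the next gene on the upstream side, cwo, was 10189 bp away.

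CG8520 (FBgn0033734, chr2R:12422931-12425459, plus strand) was bound at its inner start site. Relative signal was 26.6, 26.5 and 36.2, a mean of 29.8 ± 5.53 (SD, n = 3), highest in replicate 3. The summit, at 12423546, lay 15 bp upstream of the inner start and 615 bp downstream of the outer one, in the 5′ UTR of the longer transcript. Its 2 sites began 19 and 7 bp upstream of the inner start, and the one at 19 bp covered the summit. The gene on the other strand, CG8834, starts 1011 bp from the summit and so does not share this position. An IDR peak of rank 731 stood 2009 bp away at the start of the next gene, Dera.

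CG5276 (FBgn0037900, chr3R:11431738-11433543, plus strand) had a relative signal of 30.9, 27.0 and 34.0, a mean of 30.6 ± 3.52 (SD, n = 3). Its ranks were 5, 12 and 9. The summit, at 11431813, lay 75 bp from the outer and 69 bp from the inner start site, and the replicate summits were spread over 55 bp, the widest range of the 9. The close pair of sites began 30 and 18 bp upstream of the inner start. RpL24-like, a gene for a protein like ribosomal protein L24, starts on the other strand 156 bp from the outer start of CG5276 and 231 bp from the summit. The sites were 275 and 287 bp from the RpL24-like start.

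CG11050 (FBgn0031836, chr2L:6611011-6617117, plus strand) was the most even of the 9. Relative signal was 26.5, 28.4 and 30.9, a mean of 28.6 ± 2.24 (SD, n = 3), with ranks of 13, 10 and 16. The summit, at 6610978, lay 33 bp upstream of the first of 3 start sites. One AP-4 site began 29 bp upstream of that start and the other 28 bp downstream, in the 5′ UTR, and each had 1 C or G flank. The next coding gene upstream, Dpp10, was 9942 bp away. Inside CG11050, 1729 bp from the summit, lay a further IDR peak of rank 806, with a relative signal of 4.73, 7.64 and 3.33.

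CG10383 (FBgn0032699, chr2L:18690904-18695602, minus strand) was the only one of the 9 with its IDR summit downstream of the nearest start site. This moved with the replicate: by the summits of replicate 3 it too counted as upstream, and by those of replicate 1 other genes counted as downstream. Relative signal was 30.1, 25.6 and 31.8, a mean of 29.2 ± 3.25 (SD, n = 3), lowest in replicate 2, where it ranked 19. The summit, at 18695533, lay 69 bp inside the 5′ UTR and 107 bp upstream of an inner start site. CG10338, uncharacterized, starts on the other strand 62 bp from the outer start of CG10383, the closest divergent pair among the 9. Both sites within 150 bp lay in the 5′ UTR of CG10383, between the summit and the inner start and so upstream of the latter. They were 117 and 146 bp from its outer start, with A or T on both flanks. One more stood in the 5′ UTR of CG10338, 209.5 bp from the summit. A weaker IDR peak of rank 1168 lay 1408 bp away inside CG10383, with a relative signal of 2.97, 2.71 and 3.16.

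Thus 4 of the 9 promoters were divergent (puml, Slh, CG5276 and CG10383), meaning that start sites on both strands, reading away from each other, lay within 500 bp of the summit. The share was 37.1% of all IDR promoter summits, close to that of the 9. At each of the 4, the ChIP signal cannot be assigned to either gene by position. At Slh the start of oaf was nearly as close as that of Slh. At puml, CG5276 and CG10383 the AP-4 sites within 150 bp of the summit stood nearer to the named gene.

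**Figure D3:**
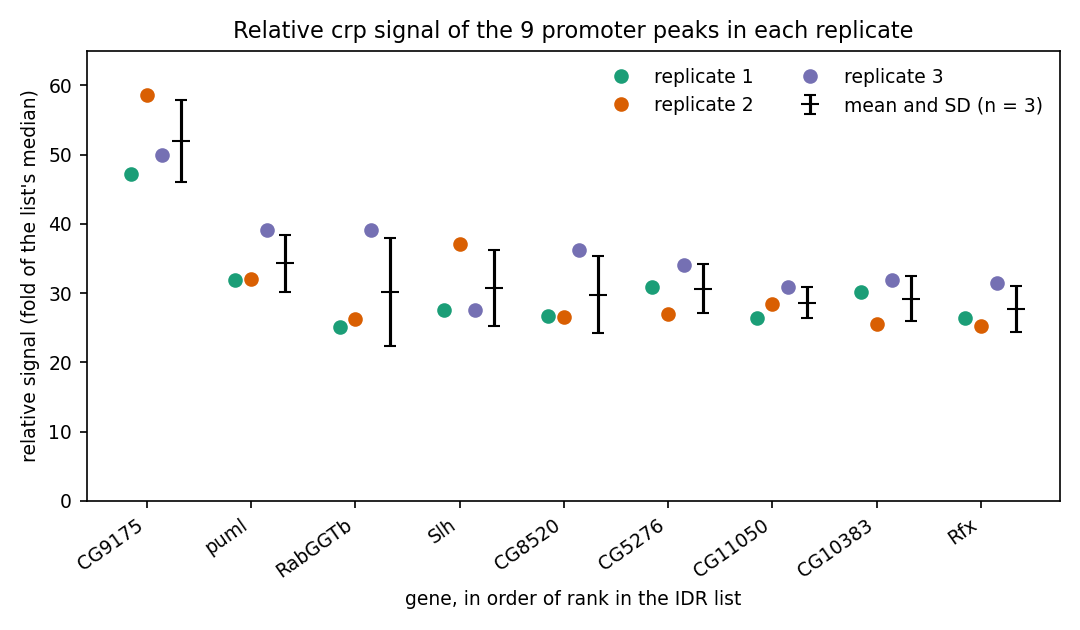
Relative signal (fold of the median of the 5460 strongest peaks of the same list) of the 9 promoter peaks in replicates 1, 2 and 3 (points) with mean and SD over 3 replicates (bars), in order of IDR rank. CG9175 stands above the others in each replicate, and 7 of the 9 are highest in replicate 3.

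The replicates differed for most of the 9 peaks in the same way. Replicate 3 gave the highest relative signal for 7 of the 9 and replicate 2 for CG9175 and Slh. The lowest was replicate 1 for 5 and replicate 2 for 4. The median over the 9 was 27.5, 27.0 and 34.0 in replicates 1, 2 and 3. The values of puml lay above all those of CG11050, CG10383 and Rfx. The 7 peaks other than CG9175 and puml had ranges that all overlapped, with means from 27.7 to 30.7, and the ranges do not resolve their order. Compared within each replicate, CG8520, CG5276 and CG10383 were above Rfx in all 3, and CG5276 was above CG10383 in all 3. The order of every other pair among these 7 changed between replicates. The coefficient of variation ran from 7.83% (CG11050) to 25.7% (RabGGTb), with a median of 11.9%, and the median of the 4447 IDR peaks matched in all 3 full lists was 34.0%. The range of the replicate summits had a median of 21 bp, against 37 bp. Peak width had a median of 1267 bp, against 470 bp for all IDR peaks. These spreads are not independent of the choice of the 9, because the same replicates, pooled, gave the IDR list and strong peaks were taken from it.

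In every replicate, all 9 had a summit within 100 bp in its set of 5460 strongest peaks, as 53.2% of IDR peaks did. Nothing is read from this count, since signal pooled from the same replicates chose the 9. Their ranks ran from 1 to 16 in replicate 1, 1 to 20 in replicate 2 and 1 to 21 in replicate 3. The 15 strongest peaks of replicates 1, 2 and 3 held 8, 6 and 7 of the 9. In the IDR list their deposited signal ran from 22387.9 (CG9175) to 11832.7 (Rfx). Just outside were Sap47 at 11013.3, Hmgs at 10977.7 and CG1354 at 10835.1. Sap47, at rank 16, had a relative signal of 24.5, 21.98 and 31.1 in replicates 1, 2 and 3, a mean of 25.9 ± 4.72 (SD, n = 3). It was below Rfx in each replicate, by less in replicate 3 than in the other pair.

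**Figure D4:**
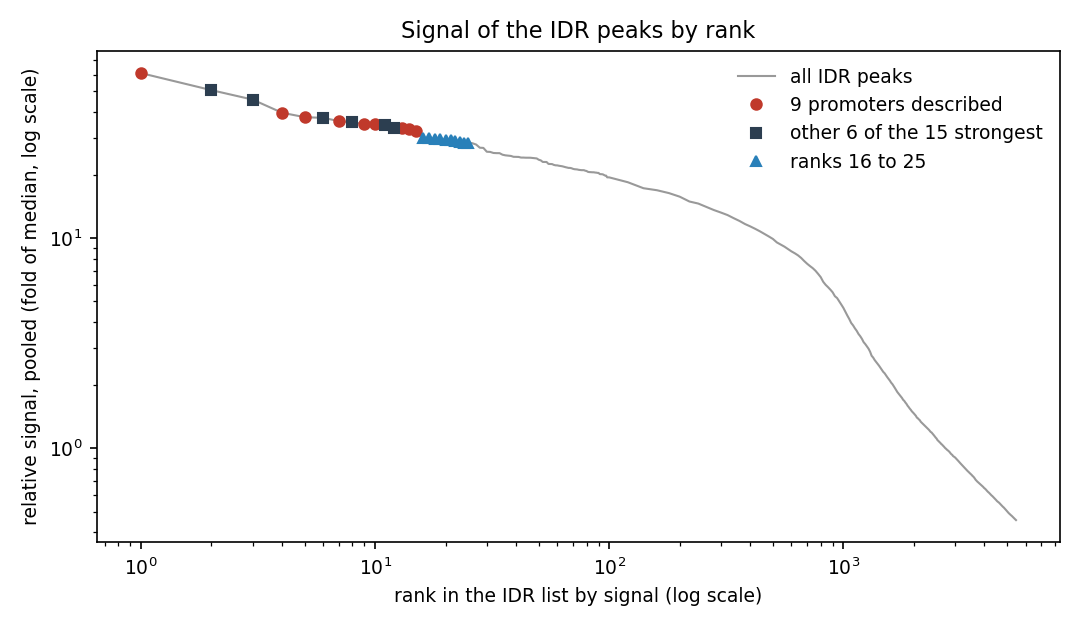
Relative signal of all 5460 IDR peaks (signal over the median of the IDR list, log scale) against their rank (log scale), with the 9 promoters (circles), the other 6 of the 15 strongest (squares) and ranks 16 to 25 (triangles). The 9 lie between 61.0 (CG9175, rank 1) and 32.2 (Rfx, rank 15), and Sap47 at rank 16 follows at 30.0.

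The promoter peaks most like the 9 in their 3 replicate values were those of Tsp86D, jar, milt, mTTF and Nmnat. Likeness was the Euclidean distance of the 3 log2 relative signals from the medians of the 9, and it was 0.03, 0.11, 0.25, 0.28 and 0.35. Of these, 4 belonged to the same 15 strongest peaks and Nmnat ranked 19. The distance uses the signal that chose the 9, so nearby ranks follow from that choice and nothing is read from them.

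Genes linked by function or protein family to 4 of the 9 (partner genes below) were also looked up. An IDR peak stood at the promoter (summit at most 500 bp from a start) of 16 of 35 (45.7%), against 33.3% of all 13968 protein-coding genes. Family relatives of RabGGTb and Slh (Fnta, Fntb, betaggt-I, Rop, car, Vps33B and Vps45) are among them, and all except Fnta had a peak. The share is thus not that of genes acting together with the 9. For RabGGTb, 4 of 5 prenylation genes had one. Rep, which presents Rab proteins to the transferase, had a relative signal of 11.4, 6.10 and 16.5, a mean of 11.4 ± 5.20 (SD, n = 3). That of betaggt-I, the beta subunit of the related type I enzyme, was 10.2 ± 1.18. RabGGTa, the alpha subunit paired with RabGGTb, and Fntb, a farnesyltransferase subunit, had weak peaks at 0.458 and 0.500 of the IDR list's median, neither matched in replicate 3. Fnta had none.

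For Slh, 7 of 9 genes of the Sec1/Munc18 family and of the SNAREs of this step had a peak. Vps33B and car (the Vps33A of the fly), relatives of Slh, had 16.7 ± 0.577 and 7.46 ± 1.86 (SD, n = 3). Syx5, the syntaxin that Slh binds, had 2.24 ± 0.118, and its fellow SNARE Membrin had 3.23 ± 0.253. Vps45 had 4.08 ± 0.164, Ykt6 had 1.12 ± 0.134 and Rop had 0.466 ± 0.0587. Sec22 and Bet1 had no IDR peak at the promoter. The 7 with a peak were below Slh in each replicate, which follows from the choice of Slh by its signal.

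For puml, 2 of 5 lipid droplet genes had a peak, both weak. The lipase gene bmm had 0.578 of the IDR list's median and no match in replicate 2, and Hsl had a mean of 0.617 ± 0.232 (SD, n = 3). Lsd-1, Lsd-2 and mdy had none. For Rfx, 3 of 16 genes of ciliated neurons (18.8%) had one. They were unc at 6.51 ± 2.56 (SD, n = 3), Oseg4 at 0.602 ± 0.194, and Oseg6, which shares its promoter and its peak with Rep. That peak is thus counted once for Rfx and once for RabGGTb. Most peaks of these lists lay within 500 bp of another coding gene as well, such as Grip84 for car and Fur1 for Vps33B.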

How the data were processed

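Signal and summit offset were read from the peak lists deposited by the authors on dm6: relaxed lists of each replicate and of their pool, and the IDR list. The signal values were used as deposited. For the aligner, peak caller and IDR threshold, names and settings are not given in the sources used. A control library and the dm3 lists were not analysed here. Signals are comparable within a list only, hence the relative signal. Summits were matched within 100 bp. Gene models were Ensembl release 115 (protein-coding), and sequence was the RefSeq dm6 assembly, with names and synonyms from its annotation. CAGCTG was counted when whole within 50 bp or 150 bp of the summit. No test was run: there was 1 group and signal chose the members. Members, gene lists and motifs were chosen with earlier results of these data known. The text names the 9 genes, genes starting within 500 bp of a summit, nearest neighbours, the listed partner genes (IFT74 matched no gene), the other strongest peaks, the 3 next below and the 5 most alike. Searches were tested on simulated data. Python 3.11.15, numpy 2.4.6 and matplotlib 3.10.9 were used.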

Additional observations from a re-analysis of the deposited data

How the results depend on the processing

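The median over the 9 of the mean relative signal was 30.2. It became 197 when the median of all peaks of each list was the divisor, because that divisor is smaller, and it ran from 27.8 to 31.4 with each replicate left out in turn. The values of all 9 single genes were also higher with this divisor, as its construction gives. At least 2 AP-4 sites were found at 9 of the 9 within 150 bp and at 5 within 50 bp, an alternative chosen after seeing the data. Of the 35 partner genes, 16 had a promoter peak, 7 when the 1000 strongest IDR peaks were used and 28 with the pooled list, by construction of shorter and longer lists. Leaving out each replicate gave 12 to 13 partner genes, 9 of 9 matched, 6 to 8 with a site within 50 bp, and 7 to 8 upstream summits. The partner counts there used strong peaks shared by the remaining pair of replicates, in lists of 3377 to 3938 peaks. Those lists are shorter than the IDR list, so the lower counts cannot be read as dependence on a replicate. The divergent count was 3 to 5 for narrower and wider windows. No paired analysis was possible because there was a single group. The unknown depth limits comparison of signal between lists.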
